A study of Mus musculus with 2 samples.

Results

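The nuclear genes for the subunits of mitochondrial oxidative phosphorylation were compared between the incisors of newborn *Sox21* KO mice and those of wild-type mice. Members were all genes on the array whose name begins as those of complexes I to V do (*Nduf*, *Sdh*, *Uqcr*, *Cox* and *Atp5* names with a subunit letter or number), which gave 82 of the 21244 genes that had both a probe and a symbol in the reference. Each gene was read from its brightest probe, and 80 of the 82 were well above background on both arrays. The muscle-type isoforms of complex IV, *Cox6a2*, *Cox7a1* and *Cox8b*, were kept apart, so that 77 genes remained for the description by complex: 37 of complex I, 4 of complex II, 8 of complex III, 11 of complex IV and 17 of complex V.

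The arrays were one-colour Agilent SurePrint G3 Mouse GE 8×60K slides, and each genotype was hybridized to 1 of them as whole incisor tooth germ RNA. Wild-type mice were C57BL/6J. The knockout mice were a donated line, credited to the same earlier work as a reporter line with GFP inserted at the *Sox21* locus. The paper labels its GFP reporter mice *Sox21*+/−, which makes the GFP insertion the minus allele there. The strain background and zygosity of the mice on the array are not given in the sources used here. The deposited labels state postnatal day 0 and the methods state the day after. *Sox21* encodes a transcription factor of the Sox family, and the question of the comparison was which genes differ in tooth germ without it.

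Oxidative phosphorylation takes place in the inner mitochondrial membrane. Complexes I and II pass electrons from NADH and succinate to ubiquinone, complex III passes them on to cytochrome c, complex IV hands them to oxygen, and complex V makes ATP from the proton gradient that the others build. Most subunits are encoded in the nucleus and the rest in the mitochondrial genome, and complex IV contains subunits with separate isoforms for heart and skeletal muscle.

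Each processed signal was divided by the 75th percentile of its array, which is 1 on the scale of normalized signal used here, and log2 ratios are those of *Sox21* KO over wild-type. With 1 array for each genotype no test was possible and no difference has a replicate check. The error that the scanner software gives for each signal put an error of 0.20 on the log2 ratio of the median member. For members this error was close to a fixed share of the signal, and on the log2 ratio it lay between 0.204 and 0.232. Being past it is thus close to a fixed fold limit for members and measures no spread between animals or arrays. Repeat spots on the array were closer, with a median SD of 0.09 for the log2 ratio among 268 probes spotted at least 5 times. *Sox21* itself was lower on the KO array at both of its probes, with log2 ratios of -1.09 and -1.51. Normalized signals went from 5.09 to 2.39 and from 1.07 to 0.375, so signal remained on the KO array. Where these probes lie relative to the altered part of the gene is not given in the sources used here. The tooth identity of both samples was checked by *Amelx*, *Ambn* and *Dspp*, which were well above background on both arrays.

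The promoters of 4 members are shown first, as examples chosen for the motifs they hold: the muscle-type isoforms differed most between the arrays, and the other 2 carry the NRF1 motif that is described below for all members. *Cox8b* and *Cox7a1* are muscle-type isoforms. *Cox6a1* is the counterpart of the muscle-type *Cox6a2*, and *Sdha* encodes the flavoprotein of complex II. Each stretch is the 250 bases before the RefSeq start on GRCm38.p6, from 5′ to 3′ on the strand of the gene. They lie at chr7:140900447-140900696 on the minus strand for *Cox8b*, chr7:30183921-30184170 on the plus strand for *Cox7a1*, chr5:115348959-115349208 on the minus strand for *Cox6a1* and chr13:74350241-74350490 on the minus strand for *Sdha*. Capitals mark E-boxes (CA and TG with any 2 bases between) in the muscle-type isoforms, and in the others the NRF1 motif (GCGC, any 2 bases, GCGC), the ETS motif CCGGAAG and the YY1 motif AAGATGGC, each searched on both strands.
Cox8b: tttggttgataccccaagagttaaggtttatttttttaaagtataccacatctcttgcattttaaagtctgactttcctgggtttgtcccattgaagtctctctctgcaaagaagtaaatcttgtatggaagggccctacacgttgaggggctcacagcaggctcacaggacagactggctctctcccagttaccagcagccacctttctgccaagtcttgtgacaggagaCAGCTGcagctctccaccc
Cox7a1: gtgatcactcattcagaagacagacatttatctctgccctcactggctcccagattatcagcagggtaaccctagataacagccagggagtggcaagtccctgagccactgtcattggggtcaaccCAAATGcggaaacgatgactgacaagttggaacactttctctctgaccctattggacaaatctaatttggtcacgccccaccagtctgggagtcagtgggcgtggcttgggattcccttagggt
Cox6a1: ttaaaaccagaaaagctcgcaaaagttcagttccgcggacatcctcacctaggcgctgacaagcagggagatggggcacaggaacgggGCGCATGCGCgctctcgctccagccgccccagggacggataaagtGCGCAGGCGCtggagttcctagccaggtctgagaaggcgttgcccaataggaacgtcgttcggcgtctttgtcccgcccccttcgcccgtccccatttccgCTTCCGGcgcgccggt
Sdha: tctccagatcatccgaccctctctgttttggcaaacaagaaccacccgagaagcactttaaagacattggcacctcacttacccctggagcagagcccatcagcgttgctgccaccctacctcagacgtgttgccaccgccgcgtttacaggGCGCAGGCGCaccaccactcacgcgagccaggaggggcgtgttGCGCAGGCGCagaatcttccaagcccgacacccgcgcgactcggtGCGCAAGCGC
*Cox6a1* and *Sdha* held 2 and 3 copies of the NRF1 motif in these stretches. The muscle-type isoforms with a RefSeq promoter window, *Cox8b* and *Cox7a1*, held none, but neither did *Cox8a* and *Cox7a2*, which are not muscle-type.

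RefSeq windows of 300 bases, which also take in 50 bases after the start, were at hand for 69 of the 82 members, in 75 windows. NRF1 is a transcription factor known for driving nuclear genes of the respiratory chain. Its motif was present in 25.3% of the windows of members, 11.7% of the windows of all measured genes and 6.23% of all windows. The YY1 motif was present in 16% of member windows, 4.04% of those of measured genes and 2.75% of all windows. The ETS motif, which GABP binds, was present in 21.3%, 15.6% and 8.86%. E-boxes, the motif of myogenic factors among others, were common everywhere, with 69.3% of member windows, 64.6% of those of measured genes and 72.3% of all windows. The MEF2 motif (CTA, any 4 bases, TAG) was in 1 member window, or 1.33%, beside 2.99% of those of measured genes and 3.69% of all windows. Outside the muscle-type isoforms, the log2 ratio had a median of 0.01 among the 18 members with an NRF1 motif and of -0.07 among the 48 without. A gap of like size in the other direction went with the E-box, with -0.07 among 46 members with it and 0.00 among 20 without. For the ETS motif the medians were -0.04 and -0.03, and for the YY1 motif -0.07 and -0.03. Matches of this kind describe letters in a window and not bound sites.

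The 77 genes had a median log2 ratio of -0.03, and 47 were lower and 30 higher in *Sox21* KO tooth germ. Across all 13803 measured genes, 47.6% were lower and the median log2 ratio was 0.01. The direction of this small shift depended on the scaling: when the arrays were set to the median of the spots instead, the median of the 77 genes was 0.05 and the median of all genes was 0.09. Under this median shift 29 of the 77 genes were lower, or 37.7%, beside 34.4% of all genes. The difference between the 77 genes and all genes was -0.04. It cannot differ between these scalings, since each moves every gene of an array alike. The middle 50% of the 77 genes had log2 ratios from -0.12 to 0.07, against -0.13 to 0.16 for all genes.

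Few members stood out. Only *Cox8b* and *Cox6a2* were at least 1.5-fold lower, and 0 were at least 1.5-fold higher, beside 2.99% and 3.19% of all measured genes. *Sdhb* and *Ndufa3* were added at a log2 ratio of -0.32 or less, which made 4 genes of 80 where 9.72% of all genes passed that limit. *Ndufa4l2* was among the 2 genes at 0.32 or more, where 10.4% of all genes were. None of the 80 members was 2-fold apart in either direction (0 genes), which 1.42% of all genes were. The log2 ratio was larger than the scanner error for 13 of the 80 members, or 16.2%, and for 33.9% of all measured genes. Under the median shift it was larger for 11 members and for 37.9% of all genes. Members were bright: 60 of the 80 were among the 1381 measured genes with the highest signal, of which 22.7% were past the scanner error. The width of the middle 50% of log2 ratios was 0.21 for those bright genes, 0.19 for the 77 genes and 0.29 for all genes.

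**Figure D1:**
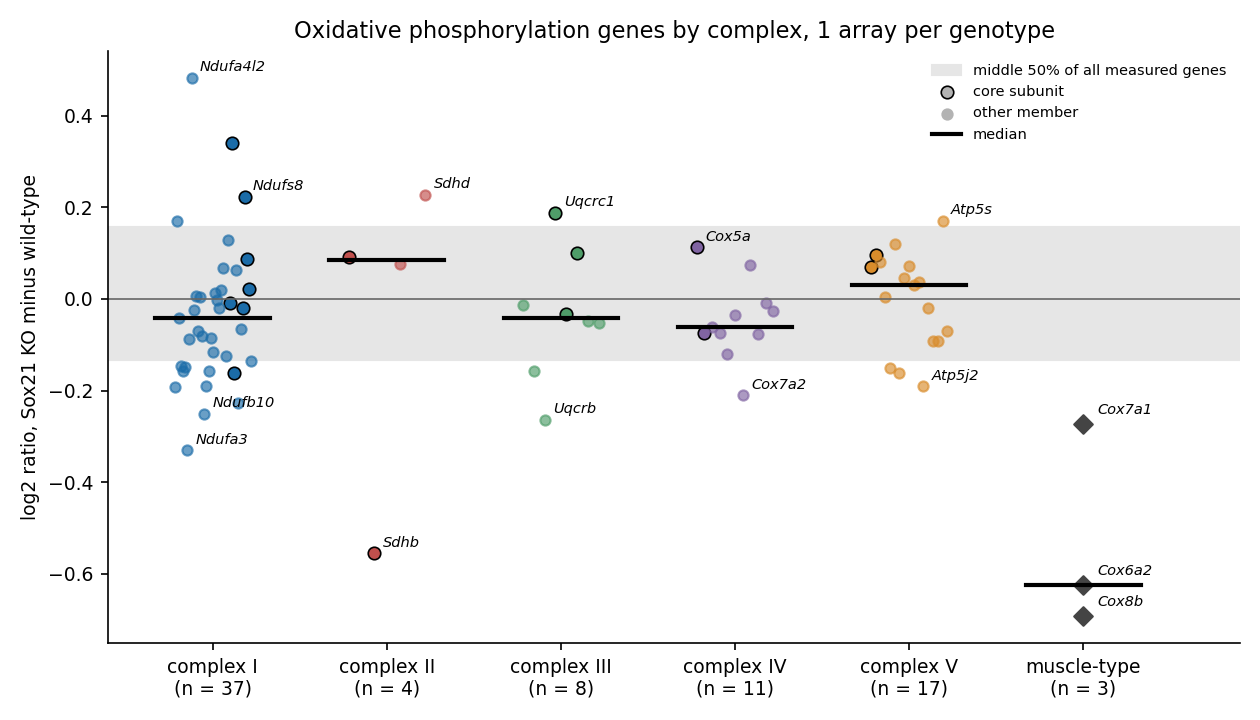
Log2 ratio of each measured member (*Sox21* KO minus wild-type) by complex, with the median of each group as a bar, core subunits outlined and the middle 50% of all measured genes shaded. Most members lie between -0.2 and 0.2, and *Cox8b*, *Cox6a2* and *Sdhb* lie lowest.

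The muscle-type isoforms of complex IV were the lowest group. These subunits replace their general counterparts in heart and skeletal muscle, and their probes lie on chromosome 7 (mm9), at chr7:148084852-148084911 for *Cox8b*, chr7:135349160-135349219 for *Cox6a2* and chr7:30970337-30970948 for *Cox7a1*. The normalized signal of *Cox8b* was 1.44 ± 0.145 (scanner error) in wild-type and 0.888 ± 0.0902 in KO tooth germ, which is a log2 ratio of -0.69 ± 0.21. *Cox6a2* went from 2.96 ± 0.297 to 1.92 ± 0.193, a log2 ratio of -0.63 ± 0.20. *Cox7a1* went from 3.44 ± 0.345 to 2.85 ± 0.285, a log2 ratio of -0.27 ± 0.20. All 3 were lower on the KO array, by 1.62-fold, 1.54-fold and 1.21-fold, and each by more than its scanner error. Under the median shift *Cox7a1* was at -0.20, inside its scanner error, and *Cox6a2* at -0.55, which is less than 1.5-fold.

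The counterparts of these isoforms differed less, except in the *Cox7a* pair. *Cox6a1* had normalized signals of 406 and 389 on the wild-type and KO arrays, a log2 ratio of -0.06, and *Cox8a* had 246 and 242, a log2 ratio of -0.03. *Cox7a2* had 48.6 and 42.0, a log2 ratio of -0.21. The log2 ratio of the isoform minus that of its counterpart was -0.57 for *Cox6a2*, -0.67 for *Cox8b* and -0.06 for *Cox7a1*. The second probe of *Cox8a* had 144 and 130, a log2 ratio of -0.16, against which the difference of *Cox8b* was -0.54. Under the median shift, the log2 ratios of *Cox6a1* and *Cox8a* were 0.01 and 0.05.

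**Figure D2:**
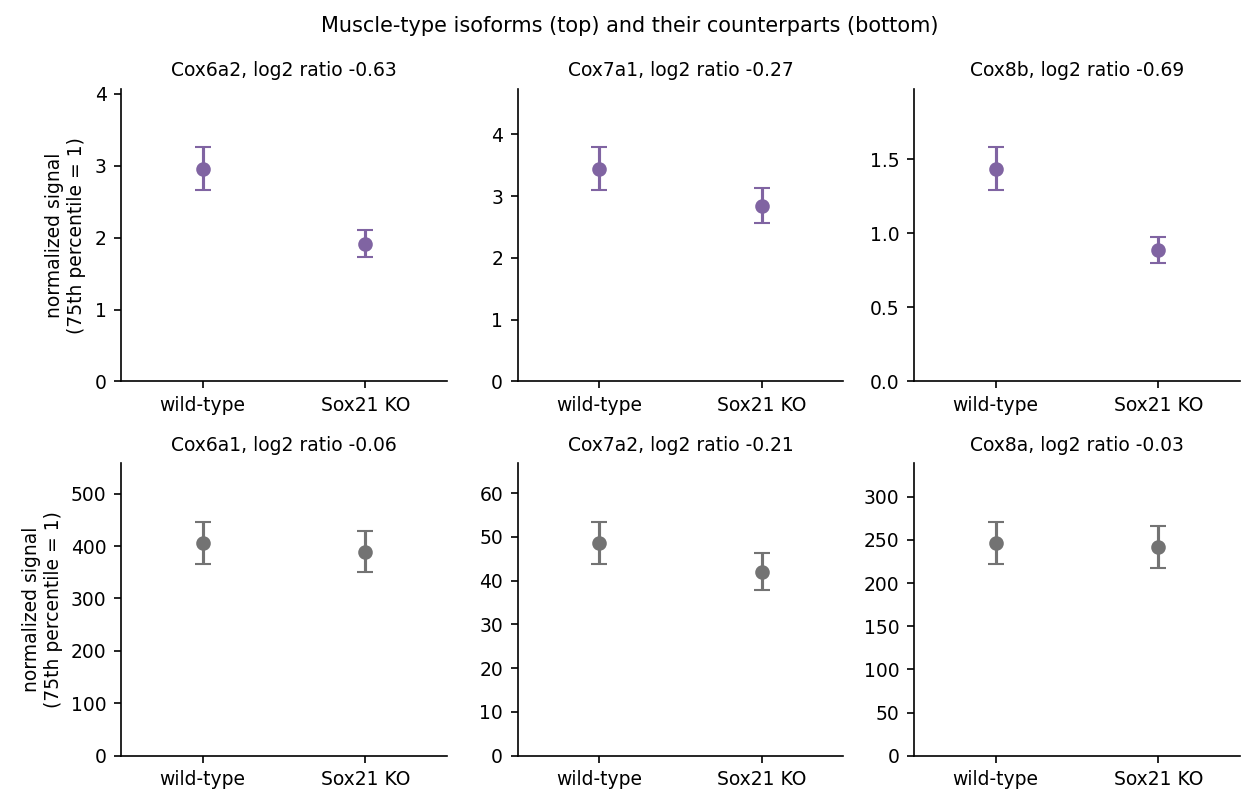
Normalized signal of the 3 muscle-type isoforms (top) and their counterparts (bottom) on the wild-type and *Sox21* KO arrays, with the scanner error of each signal as a bar and 1 array for each genotype. *Cox6a2* and *Cox8b* are lower on the KO array beyond the bars, whereas the bars of *Cox7a1* and of all 3 counterparts overlap.

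Skeletal muscle markers were lower as well. Of 20 genes of the marker list, 16 were measured and 14 of these were lower in *Sox21* KO tooth germ, with a median log2 ratio of -0.48 (-0.34 under normexp background correction), and *Mylpf*, *Casq1*, *Myod1* and *Chrna1* were not well above background on either array. The summed normalized signal of the 16 genes was 132 in wild-type and 90.8 in KO tooth germ. Troponin *Tnnc2* had a log2 ratio of -0.59, actin *Acta1* -0.59 and muscle creatine kinase *Ckm* -0.71, while embryonic myosin *Myh3* had 0.64 and the calcium channel *Ryr1* 0.40. Of 5 heart muscle markers, 2 were measured, *Myh6* at -0.10 and *Tnnt2* at -0.26, and *Nppa*, *Myl7* and *Tnni3* were not well above background. Of 6 brown fat markers, 2 were measured, with *Cidea* at 0.98 and *Fabp4* at 0.33, and on neither array was *Ucp1*, the defining gene, well above background. The part of muscle tissue in the values of *Cox6a2*, *Cox7a1* and *Cox8b* was not tested, and in whole tooth germ fewer muscle cells and less RNA per cell cannot be told apart.

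In complex I, the NADH dehydrogenase, 24 of 37 genes were lower and 13 higher, with a median log2 ratio of -0.04, which was 0.03 under the median shift. *Ndufa4l2* was highest, with normalized signals of 11.1 in wild-type and 15.5 in KO tooth germ and a log2 ratio of 0.48 ± 0.20. Its name places it here, but it is a relative of *Ndufa4*, a protein now assigned to complex IV, and it is known as a target of hypoxia-inducible factor. *Ndufa4* itself had 34.2 and 32.1, a log2 ratio of -0.09. Neither is a subunit of complex I as it is known today.

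The core of complex I carries the flavin and the iron-sulfur clusters, and its genes lay on both sides of 0. *Ndufs8*, an iron-sulfur subunit, went from 7.75 to 9.05, a log2 ratio of 0.22, which was past the scanner error, but at 0.20 inside it under normexp background correction. *Ndufv1*, which binds NADH, had 0.09, *Ndufv2* 0.02, *Ndufs1* -0.01, *Ndufs7* -0.02 and *Ndufs3* -0.16.

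The accessory subunits of complex I, which surround the core, had a median of -0.08, with 21 of 30 lower when *Ndufa4* and *Ndufa4l2* are counted by name. *Ndufa3* had normalized signals of 106 and 84.1 on the wild-type and KO arrays, a log2 ratio of -0.33, *Ndufb10* had 69.8 and 58.7, a log2 ratio of -0.25, and *Ndufs5* had 58.0 and 49.5, a log2 ratio of -0.23. These were the 3 lowest of the complex, and each was past the scanner error. Under the median shift *Ndufb10* was at -0.18 and *Ndufs5* at -0.15, both inside it. *Ndufa10* had 0.17 and *Ndufc2* 0.13.

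Complex II, succinate dehydrogenase, is also an enzyme of the citric acid cycle and has 4 subunits. *Sdha*, the flavoprotein, had normalized signals of 19.4 and 20.7, a log2 ratio of 0.09, *Sdhc* had 17.1 and 18.1, a log2 ratio of 0.08, and *Sdhd* had 23.0 and 27.0, a log2 ratio of 0.23. At these probes both membrane anchors, *Sdhc* and *Sdhd*, were higher on the KO array. *Sdhb*, the iron-sulfur subunit, went from 170 to 116, a log2 ratio of -0.55, at its brightest probe, which lies at chr4:140535052-140535108 (mm9). The other *Sdhb* probe, at chr4:140529606-140529665 (mm9), had 9.61 and 9.92, a log2 ratio of 0.045. The *Sdhb* value therefore rests on 1 probe and was not shared by the other.

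Complex III, the cytochrome bc1 complex, had 2 genes higher and 6 lower of 8, with a median of -0.04, which was 0.03 under the median shift. The core protein *Uqcrc1* went from 19.2 to 21.8, a log2 ratio of 0.19, and the Rieske iron-sulfur protein *Uqcrfs1* from 25.6 to 27.4, a log2 ratio of 0.10. *Uqcrb* went from 46.3 to 38.5, a log2 ratio of -0.26, and *Uqcr11* from 117 to 105, a log2 ratio of -0.16. The second *Uqcrb* probe had -0.25, but the dimmest of its 3, at 20.0 and 19.2, had -0.056. *Uqcrc2*, the other core protein, had a log2 ratio of -0.03. Its probe was spotted repeatedly, and over 9 spots the log2 ratio lay between -0.11 and 0.02 with an SD of 0.05.

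Of the 11 measured complex IV genes outside the muscle-type isoforms, 2 were higher and 9 lower, with a median of -0.06, which was 0.01 under the median shift. The catalytic core of this complex is encoded in the mitochondrial genome, and *Cox5a* and *Cox5b* are nuclear subunits outside it. *Cox5a* went from 89.7 to 97.0, a log2 ratio of 0.11, and *Cox7a2l* from 124 to 131, a log2 ratio of 0.07. *Cox5b* had a log2 ratio of -0.07. *Cox6b2*, an isoform known from testis, was measured with 2.78 and 2.56, a log2 ratio of -0.12. *Cox7b2* and *Cox8c*, also known from testis, were not well above background on either array, and no ratio is given for them.

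Complex V, ATP synthase, was the largest group with a median above 0, with 10 genes higher and 7 lower and a median of 0.03. The catalytic beta subunit *Atp5b* had normalized signals of 188 and 201, a log2 ratio of 0.10, and the alpha subunit *Atp5a1* had processed signals of 27196 and 29400 before the arrays were scaled and a log2 ratio of 0.07 after it. The genes of the c subunit, the ring that turns in the membrane, differed from each other: *Atp5g1* had -0.16, *Atp5g2* 0.05 and *Atp5g3* 0.07. *Atp5j2* was lowest at -0.19, from 145 to 127. *Atp5s* was highest at 0.17 and *Atp5f1* followed at 0.12, but *Atp5s*, like *Atp5sl* at -0.07, is not a subunit of the synthase. None of the 17 log2 ratios of complex V was past its scanner error.

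Pooled over the complexes, the subunits counted as core and the others had medians on different sides of 0. Counted as core were the redox subunits of complexes I and II, *Uqcrc1*, *Uqcrc2* and *Uqcrfs1*, *Atp5a1* and *Atp5b*, and also *Cox5a* and *Cox5b*. Of these 16 genes, 10 were higher, with a median of 0.08, and of 57 genes outside the core that are subunits, 39 were lower, with a median of -0.05, which was 0.02 under the median shift. The difference of the medians was 0.13, between 0.12 and 0.14 under the alternative settings, and the same with *Cox5a* and *Cox5b* counted outside the core. A setting that only rescales an array cannot change this difference. The contrast was not shared by every complex. In complex II the order was turned, with medians of -0.23 for the core and 0.15 for the anchors, but the first is of 2 genes and was 0.07 with the other *Sdhb* probe. Core genes and the rest, counted by name within each complex, had medians of 0.02 and -0.08 in complex I, 0.10 and -0.05 in complex III and 0.08 and 0.01 in complex V, where 8 genes outside the core were higher and 7 lower. In complex IV only *Cox5a* and *Cox5b* were counted as core, so that it has no catalytic core among the members. This contrast was drawn after the values had been seen. The signal of the probe moved with it: over the 77 genes, the log2 ratio and the mean log2 signal had a Pearson correlation of -0.40 and a Spearman correlation of -0.34, against a Pearson correlation of -0.03 over all measured genes. The points of this correlation share both arrays, and the part of signal in the contrast was not tested.

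Where a member had several probes, they mostly agreed in size. For 25 members with at least 2 measured probes, the log2 ratios of the 2 brightest probes differed by a median of 0.04, and by less than 0.1 for 20 members. *Sdhb* differed most, by 0.60. *Ndufv3* had -0.14 at its brightest probe and 0.27 at the other, whose normalized signals were 1.19 and 1.44. *Atp5h* had 0.03 and -0.25, and *Cox8a* and *Uqcrb*, above, also differed between probes. The dimmest probe of *Ndufb11* had 0.38, against -0.19 and -0.11 at its bright probes. For 10 of the 25 members at least 1 probe was above 0 and at least 1 below. For 0 of the 25 were both signs past 0.32 in size.

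**Figure D3:**
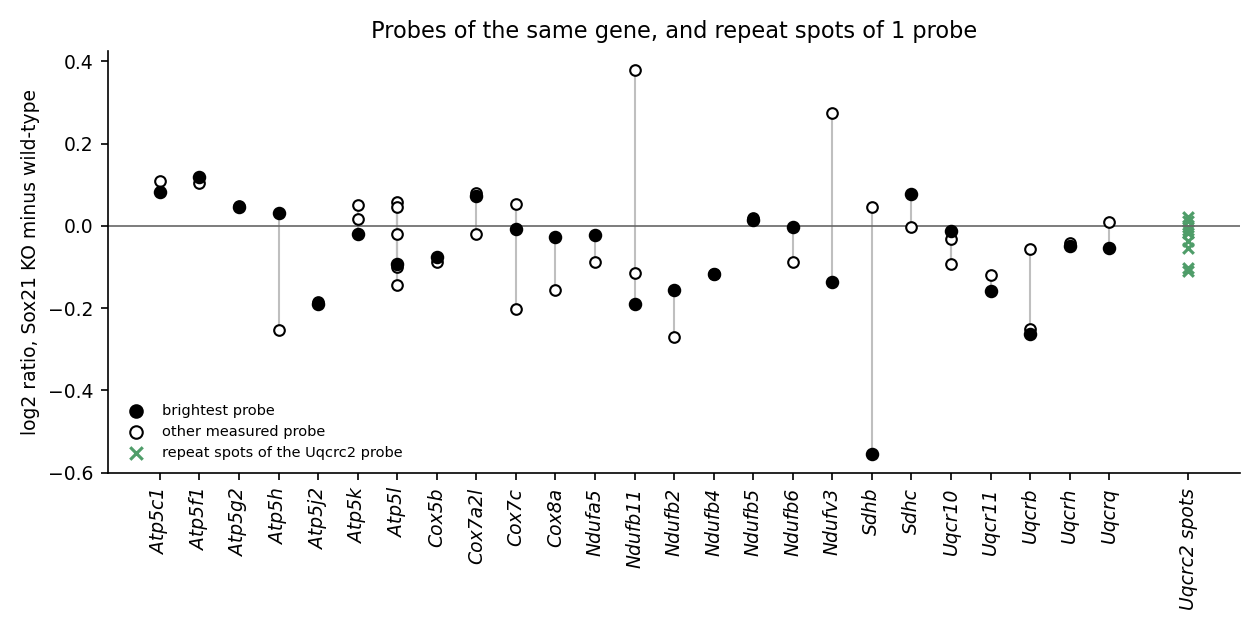
Log2 ratio (*Sox21* KO minus wild-type) of every measured probe of the 25 members with several, the brightest filled and the others open, and of the 9 repeat spots of the *Uqcrc2* probe. The longest line belongs to *Sdhb*, with -0.55 at the brightest probe and 0.045 at the other.

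The polyadenylation signals AATAAA or ATTAAA were in 34 of the 80 brightest probes, or 42.5%, against 21.3% of the probes of all measured genes. The median log2 ratio was -0.03 for the 33 members with such a probe outside the muscle-type isoforms and -0.01 for the 44 without. Of all probes of members, 3 were annotated to another chromosome than their gene, and none of these was the brightest (0 members). The GC content of the probes and the log2 ratio had a Pearson correlation of 0.00 over the 77 genes.

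The subunits encoded in the mitochondrial genome were mostly higher. Of 13, 11 had a probe, and 10 of these were higher on the KO array, with a median log2 ratio of 0.11. *mt-Atp8*, of complex V, had 0.38 at a probe that the files place on chromosome 1, and *mt-Nd1*, of complex I, 0.22, both past the scanner error. *mt-Co1*, of complex IV, was the exception at -0.01. Under the median shift it was above 0, all 11 were higher and their median was 0.18. Across all measured genes 47.6% were lower. Under the median shift that share was 34.4%, with a median of 0.09 over all genes. By the mm9 coordinates in the files, 5 of the 11 probes, those of *mt-Atp8*, *mt-Nd3*, *mt-Nd4l*, *mt-Co2* and *mt-Co3*, lie on chromosome 1, where the nucleus holds a copy of mitochondrial sequence, with a median of 0.17. The 6 on the mitochondrial chromosome had a median of 0.09. At the 5 probes, RNA of the mitochondrial genome and of the nuclear copy cannot be told apart.

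Genes that belong to the respiratory chain but fall outside the naming rule were mostly lower, 6 of 7 measured, with a median of -0.12. The hypoxia-responsive *Cox4i2* had -0.33, its general counterpart *Cox4i1* 0.09, cytochrome c, *Cycs*, -0.12 and the acyl carrier *Ndufab1* -0.20. Of 13 complex I assembly factors 7 were higher, with a median of 0.00, and *Nubpl*, which delivers iron-sulfur clusters, was highest at 0.39. Of 23 measured assembly factors of complexes II to V, 12 were higher, with a median of 0.06. The mitochondrial ribosome, which translates the mitochondrial genome, had a median of 0.01 over 77 genes, and the cytosolic ribosome 0.04 over 93.

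Regulators of mitochondrial content went both ways. Of 14 measured, 9 were higher, with a median of 0.07. *Ppargc1b*, a coactivator of mitochondrial genes, had 0.59 ± 0.24, at low normalized signals of 0.273 in wild-type and 0.411 in KO tooth germ. *Ppargc1a* had 0.15, at 2.51 and 2.79. *Tfam*, which packs and transcribes the mitochondrial genome, had 0.24, and *Tfb2m*, a transcription factor of the same genome, -0.52. *Nrf1*, whose motif is given above, had 0.01.

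The genes of the hypoxia response list were higher, as was *Ndufa4l2*, while *Cox4i2*, which also responds to hypoxia and is not on the list, had -0.33. All 8 of the list were higher on the KO array, with a median log2 ratio of 0.43, and 6 were past the scanner error. Of all measured genes, 47.6% were lower and 33.9% were past the scanner error. *Adm* had 1.15 ± 0.31, at low normalized signals of 0.111 in wild-type and 0.247 in KO tooth germ. *Ankrd37* had 0.99, also at low signals of 0.197 and 0.391. *Pdk1*, which holds pyruvate back from the mitochondria, had 0.54. *Car9* had 0.03 and *Bnip3* 0.07. The count of 8 was kept under each alternative. How these genes relate to the value of *Ndufa4l2* was not tested.

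**Figure D4:**
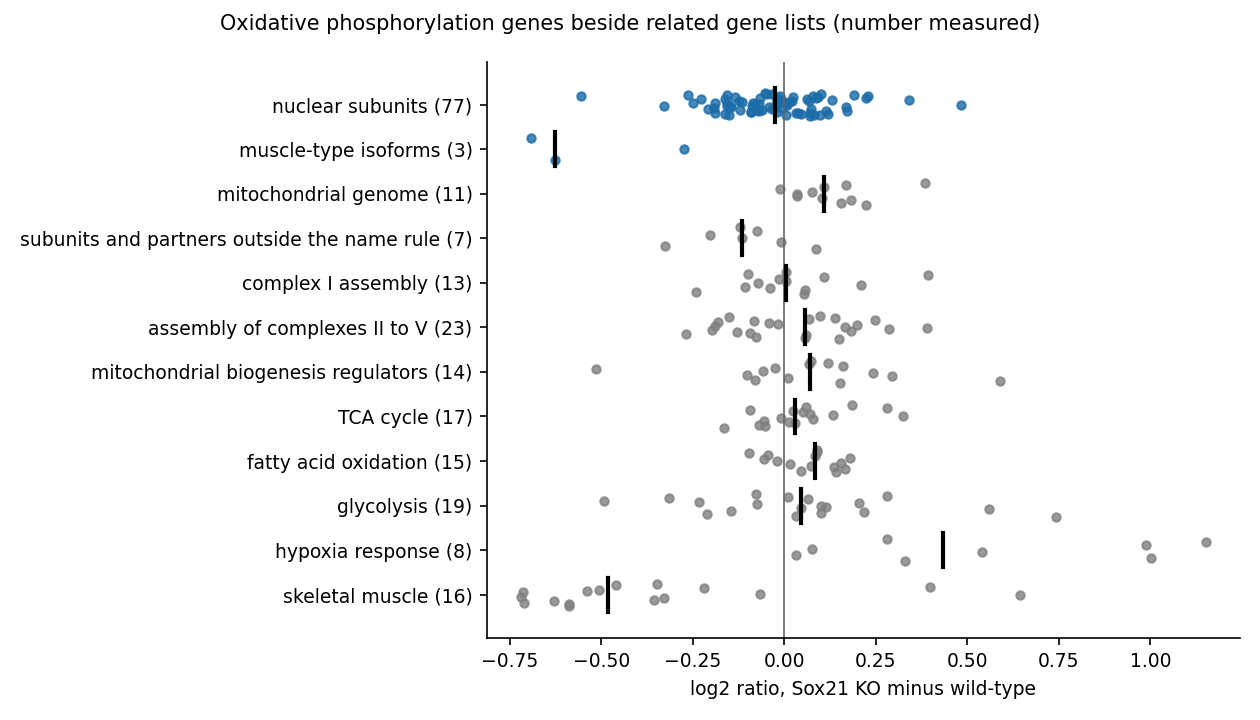
Log2 ratio (*Sox21* KO minus wild-type) of the genes of each list, 1 point per measured gene, with the median as a bar. The nuclear subunits centre near 0, the muscle-type isoforms and the skeletal muscle markers lie below it and the hypoxia response genes above it.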

How the data were processed

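Expression was measured on 2 one-colour Agilent arrays, 1 for each genotype. The authors scanned them and deposited, per the file headers from Feature Extraction 10.7.3.1, a background-subtracted processed signal intensity with an error for each spot, and the raw mean intensity and local background intensity. The deposited value table holds a ratio on a linear scale, the processed signal over 1 number per array. The methods state a percentile shift and a filter on low signals, but neither the percentile nor the limit. Both arrays lay on the same slide.

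Samples were grouped by the genotype in the labels. Of 59305 spots other than controls, 267 marked as outliers on either array were left out, 1 of them among the 126 spots of the members, and 55679 probes remained. Signals were divided by the 75th percentile over all 62976 spots of the array (268 and 276), log2 was taken and spots of a probe were averaged. A probe was measured when well above background on both arrays, and a gene took its brightest measured probe. Of the spots, 49.7% and 50.4% were well above background, and 0 were saturated. Gene symbols followed the RefSeq genes of GRCm38.p6: 26298 probes matched by accession, 2044 by symbol, 355 by an older symbol and 26982 by none. Probe coordinates are those of the files (mm9).

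No test was run, since 1 array for each genotype leaves no spread between samples, so precision is limited by the number of arrays. Medians and counts were set beside those of all measured genes. Genes named are the muscle-type isoforms and their counterparts, members past 1.5-fold, the 2 highest and 2 lowest of each complex, the core subunits, and isoforms of particular tissues, except that 1 member is not reported here on its own. Other genes came from lists of related pathways and of muscle, heart, fat, blood, ameloblast, odontoblast, epithelial and mesenchymal markers. The members and lists were chosen with earlier results of these data known. Alternatives covered scaling, background correction (normexp, offset 50), filter, probe choice, outlier marks, membership and fold limit. The steps were tested on simulated data. Python 3.11.15, numpy 2.4.6, pandas 2.3.3, matplotlib 3.10.9, R 4.3.3 and limma 3.58.1 were used.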

Additional observations from a re-analysis of the deposited data

How the results depend on the processing

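The counts and medians of the 77 genes, the medians by complex, 18 single genes, the pooled core contrast and each gene list were recomputed under 10 alternative settings, and some also under other settings of membership, core or fold limit, always with a single change. Motif, polyadenylation, correlation and X-linked values were not. Under the median shift, which moved the median of all genes by 0.07, 29 in place of 47 genes were lower on the KO array (34.4% in place of 47.6% of all genes), and 1 in place of 2 was at least 1.5-fold lower, as under normexp background correction, where it was also 1. At a limit of 0.32 on the log2 scale, 4 genes were lower and 2 higher, and at 2-fold 0 were lower. *Sdhb* changed sign at its dimmest probe, where the log2 ratio was 0.045. The median of the 77 genes lay between -0.05 and 0.05, and its difference from all genes between -0.05 and 0.03, the latter without a filter on dim probes. Settings that only rescale an array cannot change that difference. *Cox8b* stayed between -0.71 and -0.62, *Cox6a2* between -0.64 and -0.55 and *Cox7a1* between -0.29 and -0.20. The medians of complexes I, III and IV were above 0 under the median shift, and that of complex V was -0.01 under normexp background correction. *Uqcrb* was at -0.056 and *Cox8a* at -0.16 at their dimmest probes. The skeletal muscle median was -0.34 under normexp. List medians near 0 turned sign for complex I assembly (lowest -0.03), the mitochondrial ribosome (lowest -0.01), regulators of mitochondrial content (-0.01 at the dimmest probe) and carriers (0.06 under the median shift, with 6 in place of 3 higher). Recomputing single genes, the core contrast and the gene lists under these settings, and counting *Cox5a* and *Cox5b* outside the core, was chosen after seeing the data. No paired analysis was possible because each genotype has 1 array. Leaving out a replicate was not possible for the same reason. Genotype, animal and array position cannot be told apart.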

Other observations

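Fuel pathways that feed the respiratory chain were also read from the arrays. Of 17 measured genes of the citric acid cycle and pyruvate dehydrogenase, 11 were higher in *Sox21* KO tooth germ. The 11 include the pyruvate dehydrogenase genes *Pdha1* at 0.28, *Dlat* at 0.18 and *Pdhb* at 0.06. The median log2 ratio of the 17 was 0.03, and *Dld*, a subunit shared by several dehydrogenases, was highest at 0.32. Of 15 measured genes of fatty acid oxidation, 11 were higher, with a median of 0.08, and 0 were past the scanner error. Of 19 glycolysis genes, 12 were higher, with a median of 0.05. The glucose transporter *Slc2a1* had 0.74, *Pfkp* 0.56 and *Ldha*, which makes lactate, 0.28, while the muscle enzymes *Pgam2* and *Eno3* had -0.49 and -0.32. Of 8 measured mitochondrial carriers and creatine kinases, 5 were lower, with a median of -0.02, among them *Ckb* at -0.52 and *Ckmt1* at -0.38.

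Markers of other cell types were read as well. Of 6 ameloblast markers, 5 were lower, with a median of -0.64. The markers of epithelium and mesenchyme went both ways, with medians of 0.13 over 5 genes and 0.11 over 5. The 3 odontoblast markers had a median of 0.06, which was at most 0.28 under the alternatives. *Dmp1* had 0.93, from 2.41 in wild-type to 4.60 in KO tooth germ, and *Nes* 0.06. *Dspp* had -0.01 at its brightest probe and 0.28 at its other. All 3 measured erythroid markers were lower, with a median of -0.30. Without a filter on dim probes the erythroid median was -0.16, and under the alternatives at most 1 erythroid marker was higher. The part of these cell types in the values of the oxidative phosphorylation genes was not tested.

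Of the 77 members outside the muscle-type isoforms, 3 are X-linked, *Ndufa1*, *Ndufb11* and *Cox7b*, with log2 ratios of -0.19, -0.19 and -0.08. The median over 483 measured X-linked genes was 0.02.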
